A study of Mus musculus with 1376 samples.

Results

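Lung endothelial cells, the cells that line blood and lymph vessels, were 72 of the single cells in this set of mouse lung transcriptomes, or 5.23% of them all (exact binomial 95% interval 4.12 to 6.54%). They were chosen by their counts per 1000000 counts of the cell (CPM): at least 3 of 6 genes had to reach 20 CPM. These genes were Cdh5 (VE-cadherin, the adherens junction protein of endothelium), Cldn5 (a tight junction claudin), Tie1 (a receptor of the angiopoietin system), Icam2 (an adhesion molecule), Mmrn2 (a matrix protein of vessels) and Sox18 (an endothelial transcription factor). Every difference from other cells given here is a description of the same contrast, with no test.

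Of the 72 cells, 69 came from female mouse 1, whose cells filled 1 plate. The other 3 came from male mouse 1 (2 cells on plate 045s and 1 on plate 046s), and none came from male mouse 2 (1 plate). All 3 mice carried ACTA2GFP:CSPG4dsRED, a pair of fluorescent reporters for the smooth muscle gene Acta2 and the pericyte gene Cspg4, and no animal without them was measured. Cells were sorted singly into 384-well plates and read with Smart-Seq2, a full-length method without molecular identifiers, for a series on smooth muscle. The tissue label is lung, with an age of 8 to 30 weeks, while the series text gives male mice of 8 to 21 weeks and the dissociation text names heart and a skeletal muscle kit. Which cells were gated in the sort is not stated there.

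Endothelial cells line every vessel, hold plasma in through adherens and tight junctions, and set vessel tone through nitric oxide and endothelin. VEGF receptors, the TIE receptors, Notch ligands and BMP receptors guide their growth and rest. In the lung, large thin aerocytes, which carry Car4, lie against the air sacs for gas exchange, while general capillary cells, which carry Aplnr and Gpihbp1, serve as a progenitor pool and carry genes of class II antigen presentation.

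By plate, the share of endothelial cells was 18.6% in female mouse 1 (interval 14.8 to 22.9%). In male mouse 1 it was 0.573% on plate 045s (0.0695 to 2.05%) and 0.329% on plate 046s (0.00833 to 1.82%). In male mouse 2 it was 0%, with an interval that reaches 1.04%. Intervals here and below cover counting error only, of cells for shares and of reads for ratios, and each mouse is 1 animal.

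The 69 cells of female mouse 1 lay almost wholly in its first rows. All 66 cells in rows A to C were endothelial (interval 94.6 to 100%), against 3 cells in rows D to P (0.984% of them, 0.203 to 2.85%). The 3 were in wells D8, E24 and L24. The labels give each well but no gate for a row, so a sort of another population into these rows and the cell type cannot be told apart. Of the named genes past 4-fold, 5 were within 4-fold or reversed without the 3 outside wells (Ager, Lama3, Lyz2, Sftpa1 and Sftpc), and their values are given both ways below. Of the lower genes, 18 had a log2 ratio lower still by 0.61 to 1.86 without these wells, among them Acta2, Pdgfrb, Notch3 and Ednra.

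**Figure D1:**
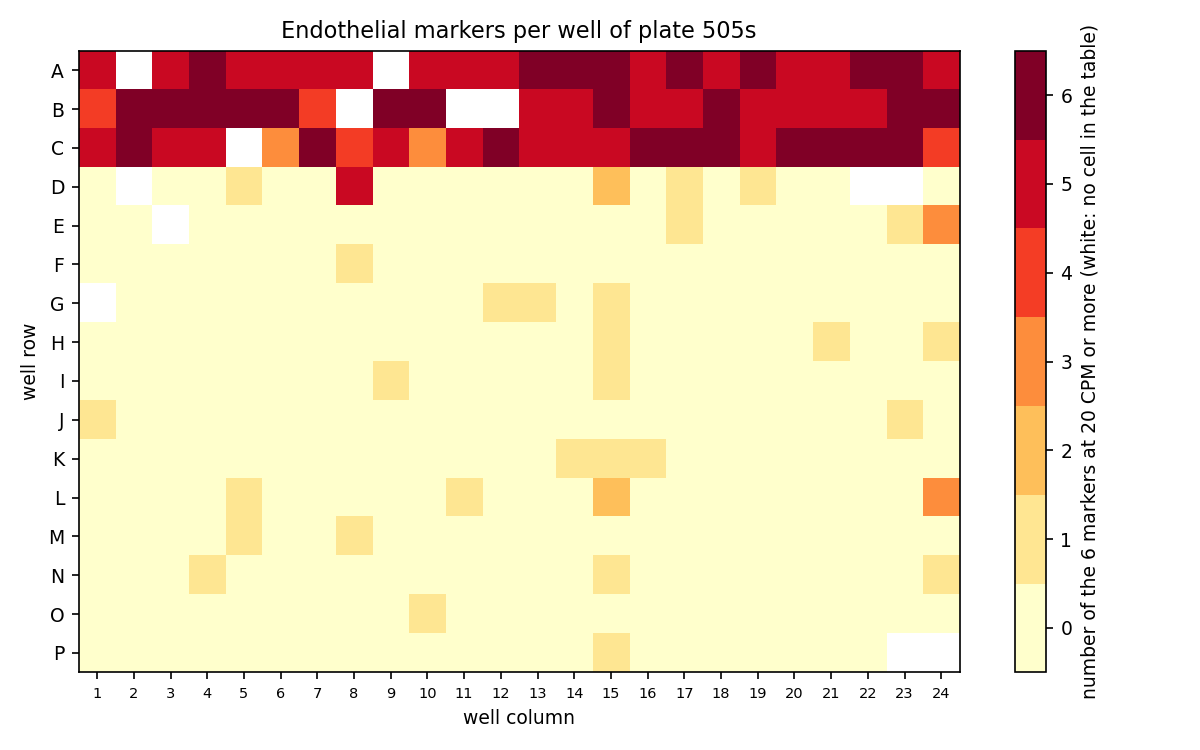
Number of the 6 endothelial markers at 20 CPM or more in each well of the plate of female mouse 1, by well row (vertical) and well column (horizontal); white wells hold no cell in the table. The 66 cells of rows A to C all carry 3 or more, and D8, E24 and L24 are the only other members.

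At the edge of the rule, 5 cells had exactly 3 markers and 14 had exactly 2. Inside it stood C10 (Cldn5 157.4, Tie1 39.3 and Icam2 39.3 CPM), where 1 count is worth 19.7 CPM, and C6 (Cldn5 3995 and Tie1 55.6 CPM). L24 (Tie1 655, Cldn5 127.3 and Cdh5 36.4 CPM) and E24 (Cldn5 52.4, Cdh5 20.9 and Icam2 20.9 CPM) were also inside, as was I23 of plate 045s. Just outside were 8 cells of male mouse 2, 3 of plate 045s, 1 of plate 046s, and D15 and L15 of female mouse 1. Most members were far from the edge, since 32 of the 69 carried 5 markers and 29 carried all 6.

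Endothelial cells held fewer counts than other cells. Totals ran from 50835 counts over a median of 146630 to 772774 in the 69 endothelial cells, and from 52902 over 254596 to 835766 in the other cells of the plate. The median endothelial cell had counts in 3961 genes, against 4859 genes in the median other cell. After thinning every cell to 50000 counts these medians were 2836 and 3123 genes, so the gap was smaller at equal depth. Well D8 had the most genes of the endothelial cells, 9734, and no doublet caller was run. Mitochondrial genes took a median of 0.758% of counts in endothelial cells and 0.548% in other cells.

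The label was then set against endothelial genes outside the rule. Of 34 further endothelial genes, 33 passed the level filter of 10 CPM in either sum, and all 33 were at least 4-fold higher in the summed endothelial cells. Among all 11476 genes that passed, 10.9% were that much higher and 17.3% were that much lower, with a median log2 ratio of −0.06. Since a fold of these genes follows from the choice of cells, nothing is read from the count. The remaining gene, Tal1, had a count in 5 endothelial cells. The shares of 10.9% higher and 17.3% lower over all tested genes also stand beside every list count below.

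Levels of the 6 genes of the rule are given as the values that chose the cells. Cldn5 (chr16:18776847-18778262) had 52.4, 3738 and 8592 CPM in the lowest, median and highest endothelial cell, against 0, 4.84 and 313.4 CPM in other cells. Tie1 (chr4:118471191-118490061) had a median of 1194 CPM in endothelial cells, Sox18 (chr2:181669836-181671640) 1004 CPM and Icam2 (chr11:106377656-106388075) 1001 CPM. Cdh5 (chr8:104101625-104144511) had 517.5 CPM and Mmrn2 (chr14:34375465-34404287) 19.1 CPM, and the median was 0 in other cells for each of the 5. Mmrn2 was the most patchy, with counts in 53 of the 69 cells and 34 at 20 CPM. Coordinates are from GENCODE M21 on build GRCm38.

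Pecam1, which encodes the junction molecule CD31, had 31.4, 2653 and 6039 CPM in the lowest, median and highest endothelial cell, against 0, 3.73 and 673.9 CPM in other cells. Its summed level was 2630.1 CPM in endothelial cells and 14.1 CPM in other cells, a log2 ratio of 7.54 (95% counting interval 7.46 to 7.63). The 2 groups overlapped in the few cells at their edges, and E24 held the lowest endothelial value. Pecam1 had a count in all 69 endothelial cells and in 64.9% of other cells. Shares of other cells below take in any cell with a count, however low, and the source of such counts was not tested. Both reporter genes were low: Acta2 had a median of 165.5 CPM in endothelial cells and 3087 CPM in other cells, and Cspg4 had 5.38 CPM in endothelial cells and 36.6 CPM in other cells.

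**Figure D2:**
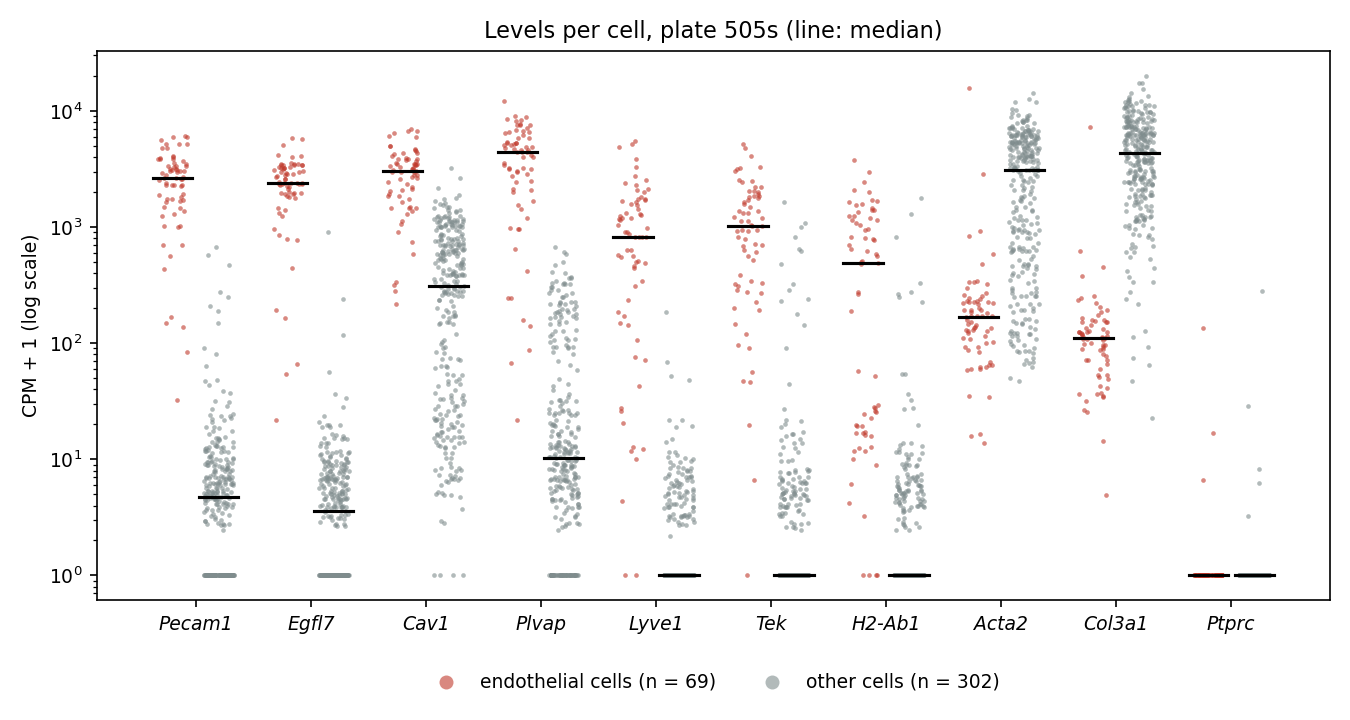
CPM + 1 per cell (log scale) for 10 genes in the 69 endothelial cells (left of each pair) and the other cells (right) of the same plate; lines are medians. Pecam1 and Egfl7 sit above nearly every other cell, Acta2 and Col3a1 sit lower in endothelial cells, and Ptprc has a median of 0 in both.

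Markers of other cell types were present at low levels in most endothelial cells. The 10 smooth muscle genes together had a lowest, median and highest sum of 33.4, 584.3 and 48142 CPM in endothelial cells, against 220, 10177 and 44375 CPM in other cells. Within rows A to C the highest was 3567 CPM. For 10 pericyte genes the sums were 7.36, 72.1 and 2073 CPM in endothelial cells, with at most 1023.1 CPM in rows A to C, and 32.3, 2527 and 31974 CPM in other cells. For 10 fibroblast genes they were 18.1, 333.99 and 13314 CPM in endothelial cells, with at most 2125 CPM in rows A to C, and 798, 12420 and 59280 CPM in other cells. Over each list, the median gene of the rows A to C cells stood at 1.61% (smooth muscle), 1.23% (pericyte) and 1.76% (fibroblast) of its level in other cells. Of the tested genes, 9 of 10 smooth muscle, 10 of 10 pericyte and 10 of 10 fibroblast genes were at least 4-fold lower in the endothelial sum. The source of these counts was not tested.

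Ratios were ranked among genes with at least 50 CPM in the sum, and counts in most cells, of the higher group. The 20 largest of these ran from a log2 ratio of 8.69 to 10.30, and 14 of them belong to the lists described below. The highest of the ranked genes was Glp1r (chr17:30901817-30940791), the receptor for the gut hormone GLP-1. It had up to 2189 CPM with a median of 18.5 CPM in endothelial cells, 47 of which had a count, against 2.65% of other cells and at most 29.8 CPM. Its log2 ratio was 10.30 (interval 9.60 to 11.11). Next came Mmrn2 of the rule and Aplnr (chr2:85136225-85139923), the apelin receptor. Also among the 20 were Edn1, the vasoconstrictor endothelin 1, Emcn, the sialoglycoprotein endomucin, Podxl, a sialomucin of the luminal membrane, and Cd300lg, an endothelial immunoglobulin receptor. Gimap4, a GTPase studied in lymphocytes, Prkch, a protein kinase C, and Disp2, a relative of the hedgehog release factor DISP1, were there too. A count in most cells could still be a low one. In endothelial cells Cd300lg had a median of 5.93 CPM and 12 cells at 100 CPM, and Disp2 a median of 7.92 CPM and 21 cells.

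Under the same limits, the 10 genes of smallest ratio ran from a log2 ratio of −7.20 (Arhgef10l, a guanine nucleotide exchange factor) to −6.74 (Ngb, neuroglobin). They included Kcne4, a potassium channel subunit, and Flnc, a muscle filamin. Counts for the 10 genes were found in 4 to 21 endothelial cells and in 50 to 81.8% of other cells.

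**Figure D3:**
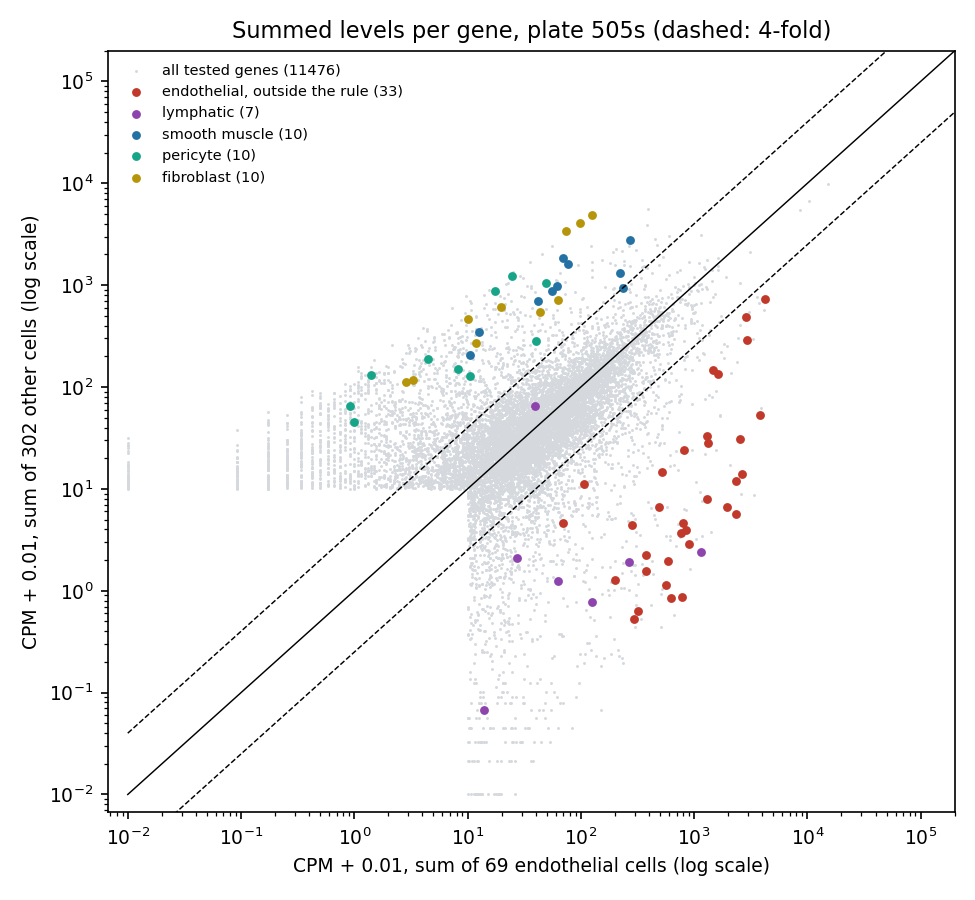
Summed level of each of 11476 genes (CPM + 0.01, log scale) in 69 endothelial cells (horizontal) and the other cells of the plate (vertical); dashed lines mark 4-fold. Endothelial genes and 6 of 7 lymphatic genes lie at the lower right, and smooth muscle, pericyte and fibroblast genes lie at the upper left.

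Promoters of endothelial genes are known for sites of ETS factors, whose core is GGAA. RefSeq promoters (build GRCm38.p6) were matched for 22 of 40 endothelial genes, 30 promoters in all, and the 250 bases before each start were searched on both strands for 4 short words. AGGAAG, an ETS-type word, was in 14 of 30 (46.7%), against 29.5% of all 32851 promoters. CCGGAA, another ETS-type word, which cannot share a GGAA core with the first, was in 2 (6.67%), against 12%. ACAAT, a SOX-type word, was in 8 (26.7%), against 27.7%, and AGATAA, typical of Gata2 and its relatives, was in 3 (10%), against 9.99%. Of the 22 genes, 4 (Cav1, Cldn5, Gata2 and Tspan7) held none of the 4 words in any promoter searched. Of the 30 windows, 17 held no base of a GENCODE exon on that strand. Among these 17, AGGAAG was found only in windows of Eng, Flt1, Adgrf5, Adgrl4 and Erg. The other windows with AGGAAG overlapped exons, those of Cyyr1 and Rasip1 over all 250 bases. The share over all promoters was not split this way, so nothing is read from the 46.7%. A match is a description of letters and not a bound site. The words, and the one printed in capitals, were picked with the counts in view. To let the letters be read, 4 windows that hold AGGAAG and no GENCODE exon on that strand are given, 5′ to 3′ as the gene reads. Capitals mark AGGAAG or its reverse complement CTTCCT.
Eng (chr2:32646345-32646594, + strand): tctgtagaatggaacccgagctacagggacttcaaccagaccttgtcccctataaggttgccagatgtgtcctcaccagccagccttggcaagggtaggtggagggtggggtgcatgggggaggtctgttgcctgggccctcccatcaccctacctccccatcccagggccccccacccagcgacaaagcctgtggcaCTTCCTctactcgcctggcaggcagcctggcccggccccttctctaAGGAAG
Flt1 (chr5:147726012-147726261, - strand): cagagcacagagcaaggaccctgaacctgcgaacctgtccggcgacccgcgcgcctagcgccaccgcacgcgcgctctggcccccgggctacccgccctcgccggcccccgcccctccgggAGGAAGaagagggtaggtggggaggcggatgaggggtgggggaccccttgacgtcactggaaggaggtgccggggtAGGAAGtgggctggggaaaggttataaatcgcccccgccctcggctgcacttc
Adgrf5 (chr17:43360181-43360430, + strand): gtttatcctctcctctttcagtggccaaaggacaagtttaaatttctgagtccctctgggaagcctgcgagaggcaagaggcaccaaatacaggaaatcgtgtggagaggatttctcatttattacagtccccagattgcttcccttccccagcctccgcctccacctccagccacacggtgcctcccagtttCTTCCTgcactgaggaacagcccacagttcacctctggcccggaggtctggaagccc
Adgrl4 (chr3:151437632-151437881, + strand): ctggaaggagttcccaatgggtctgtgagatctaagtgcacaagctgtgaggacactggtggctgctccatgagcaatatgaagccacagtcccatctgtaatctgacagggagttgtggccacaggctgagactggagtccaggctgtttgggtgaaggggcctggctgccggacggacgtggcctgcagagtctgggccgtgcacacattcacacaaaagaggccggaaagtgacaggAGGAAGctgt
Eng encodes endoglin, a co-receptor for BMP9, and its 2 matches begin 52 and 6 bases before the start. Flt1 encodes VEGF receptor 1, with 2 matches, of which the nearer begins 53 bases before the start. Adgrf5 and Adgrl4 encode adhesion G protein-coupled receptors of endothelium. Their windows shown have 1 match each, beginning 57 and 10 bases before the start. The other Adgrf5 window searched held no AGGAAG. The summed levels of these 4 genes in endothelial cells were 4266 CPM for Eng, 486.4 CPM for Flt1, 2332 CPM for Adgrf5 and 623.4 CPM for Adgrl4. In other cells they were 723.8 CPM for Eng, 6.67 CPM for Flt1, 11.8 CPM for Adgrf5 and 0.831 CPM for Adgrl4, so Eng was the one with a sizeable level outside endothelial cells.

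Of the vessel-type lists, that of general capillary genes was met by the most cells. Of 11 genes, 9 were at least 4-fold higher in endothelial cells and none lower, with a median log2 ratio of 5.96. Plvap, which forms the diaphragms of caveolae and fenestrae, had 4377 CPM in the median endothelial cell and 9.25 CPM in the median other cell. Gpihbp1, which anchors lipoprotein lipase on capillaries, had 872.3 CPM in the median endothelial cell, against 0 CPM, with counts in 67 of 69 cells and in 22.5% of other cells. Kit, the stem cell factor receptor, had a median of 935.02 CPM in endothelial cells and 0 in others. Aplnr varied more: from 0 over a median of 139.8 to 3344 CPM in endothelial cells, against at most 18.4 CPM in other cells. Lipoprotein lipase itself, Lpl, was within 4-fold, with 127.8 CPM in the endothelial sum and 96.3 CPM in the other sum. By level per transcript length (TPM), Plvap (5987 TPM) came next after Cldn5 (7312 TPM) among all listed genes in the endothelial sum.

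Aerocyte genes were carried by fewer cells. Of 11 genes, 7 were at least 4-fold higher and none lower, with a median log2 ratio of 2.81. Car4, the membrane carbonic anhydrase, reached 4033 CPM with a median of 21 CPM in endothelial cells and at most 18.4 CPM in other cells, a log2 ratio of 9.19 (8.83 to 9.58). It was at 100 CPM or more in 21 endothelial cells. Apln, the apelin ligand, was at that level in 8 and had a log2 ratio of 5.46. Ednrb, an endothelin receptor, and Tbx2, a T-box factor, were not limited to endothelial cells, with 138.6 and 85.3 CPM in the endothelial sum and 237.7 and 174.2 CPM in the other sum.

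Car4 levels varied widely among endothelial cells. The 5 highest were C1 (4033 CPM), A18 (3051 CPM), B5 (2091 CPM), B16 (1519 CPM) and A8 (1290.3 CPM). C1 and A18 each had 10 of the 11 aerocyte genes at 20 CPM. At 100 CPM, Car4 was found in 21 cells and Aplnr in 37, and both in 10. Across the 66 cells of rows A to C, the correlation of Car4 with 9 other aerocyte genes on log2(CPM + 20) ran from 0.04 to 0.60 (median 0.42), with Tbx2 at 0.60 and Fibin at 0.52. With 11 general capillary genes its median was 0.00. These cells share 1 mouse and 1 plate, and the correlation of Car4 with total counts and genes per cell was 0.18 to 0.23. For Aplnr, the median over 10 general capillary genes was 0.15, with Kit highest at 0.44.

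Ligands and their receptors were also counted within these cells. Kitl, the ligand of Kit, was at 100 CPM in 15 endothelial cells and Kit in 52, with 11 cells holding both. Apln was at 100 CPM in 8 cells and its receptor Aplnr in 37, with 3 holding both.

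Arterial genes showed a mixed picture. Of 13 genes, 11 passed the filter, 6 were at least 4-fold higher and Mgp, a matrix protein also made by smooth muscle, was lower. Sox17, a factor of arterial fate, had a median of 158.2 CPM in endothelial cells and 0 CPM in other cells (log2 ratio 8.98, 8.68 to 9.30). Gja4, the connexin 37 gene, had medians of 710.3 CPM in endothelial cells and 4.93 CPM in other cells. Gja5, the connexin 40 gene that marks larger arteries, was at 100 CPM in 2 cells only, C14 (573.3 CPM) and B21 (275.01 CPM), and both also held Gja4 at that level. Its sums were 29.3 CPM in endothelial cells and 15.7 CPM in other cells.

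Venous genes were led by Vwf, the clotting factor carrier stored in Weibel-Palade bodies. It ran from 0 over a median of 277.1 to 9849 CPM in endothelial cells, against a median of 0 and a highest of 1884 CPM in other cells. Of 11 venous genes, 9 passed the filter, 6 were at least 4-fold higher and 1, Nr2f2, a factor of venous fate that mesenchyme also uses, was lower (33.6 CPM in endothelial cells, 137.9 CPM in other cells). Slc6a2, the noradrenaline transporter, was at 100 CPM in 5 endothelial cells, all within the 37 with Vwf at that level. They were A3 (4004 CPM), B24 (2077 CPM), C17 (1233 CPM), B22 (1059 CPM) and A13 (313.7 CPM). A3 also held the highest Vwf of these, 9849 CPM, and Selp, the P-selectin gene, at 1054 CPM. Over the 66 cells of rows A to C, Slc6a2 correlated with 7 venous genes at a median of 0.49, highest for Amigo2 at 0.70 and low for Nr2f2 at 0.12, and near 0 for Ephb4. Its medians with the other lists were −0.07 to 0.01, but 2 arterial genes stood out, Fbln5 at 0.61 and Vegfc at 0.49. With depth it correlated at 0.22 to 0.34. Ackr1, a chemokine binder of venules, had no count in any cell of the plate.

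Lymphatic genes, 6 of 7 tested at least 4-fold higher, came together in 2 wells. Only 1 of the 7 had 10 CPM in other cells. The rest passed the filter through the endothelial sum alone, so nothing is read from the count. Prox1, the master regulator of lymphatic fate, had counts in 2 endothelial cells, A19 (362.4 CPM) and B15 (328.5 CPM), and in 2 other cells, with at most 40.8 CPM. A19 also held Mmrn1 at 2178, Flt4 at 1349.6, Ccl21a at 1320.0 and Reln at 1039 CPM. B15 held Mmrn1 at 4169.6 and Flt4 at 5118 CPM. Lyve1, the hyaluronan receptor often used to mark lymphatics, was not limited to these cells: it was at 100 CPM in 56 of 69, with a median of 824.5 CPM in endothelial cells, against 0 CPM in other cells and a highest of 182.8 CPM. Flt4, VEGF receptor 3, was at 100 CPM in 16.

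**Figure D4:**
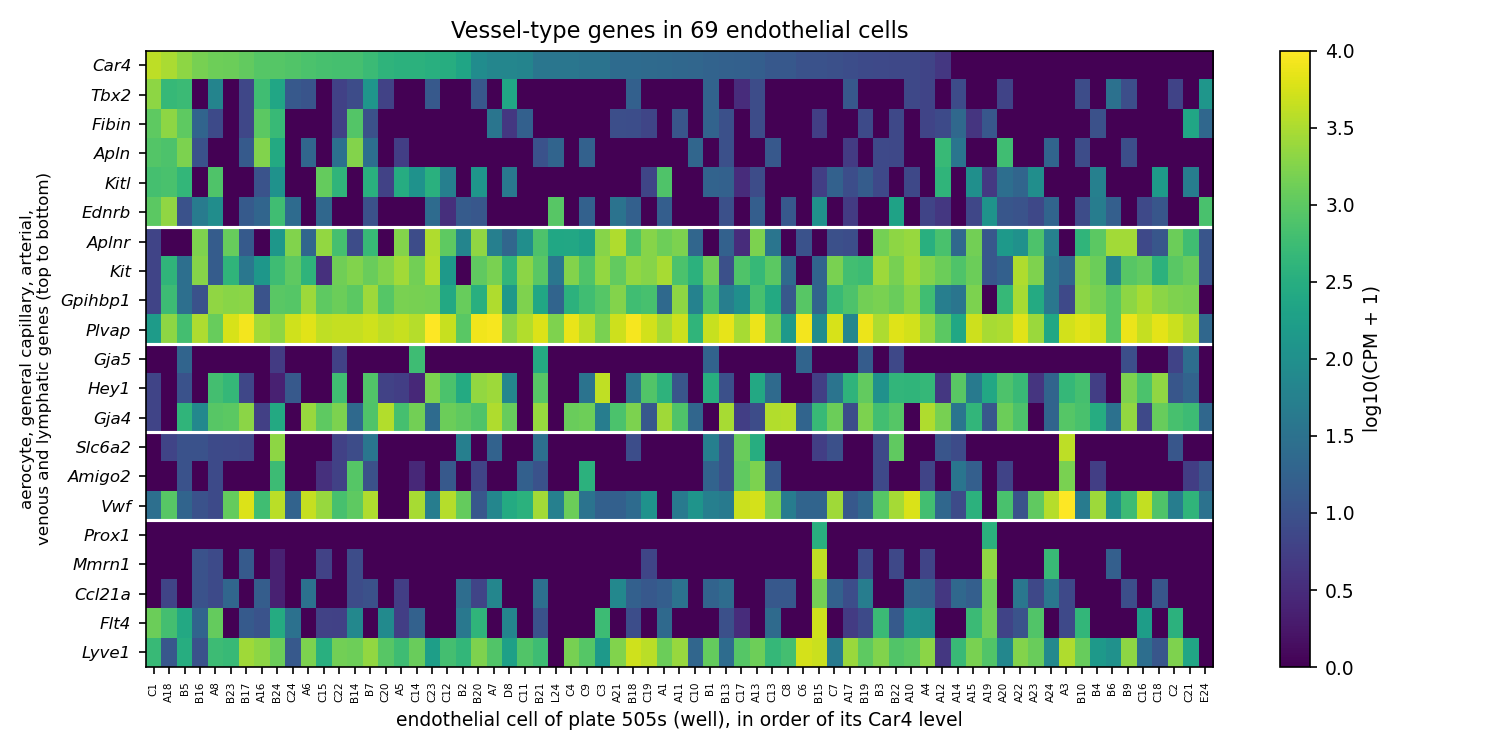
log10(CPM + 1) of 21 vessel-type genes (rows, in blocks of aerocyte, general capillary, arterial, venous and lymphatic genes) in the 69 endothelial cells of female mouse 1 (columns, in order of Car4). Kit, Gpihbp1, Plvap and Lyve1 fill most columns, Slc6a2 is high in few, and Prox1 is seen in A19 and B15.

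Counted per cell, 67 of 69 endothelial cells had at least 3 general capillary genes at 20 CPM, 65 had arterial, 42 aerocyte, 34 venous and 5 lymphatic genes. In other cells the shares were 11.3% for the general capillary, 48.7% for the arterial, 26.5% for the aerocyte and 24.8% for the venous list, and 0 cells met the lymphatic list, which allows up to 1.21%. The arterial, aerocyte and venous lists were thus met by many other cells at this level. Of the endothelial cells, 36 met 3 lists at once, 17 met 4 and 2 met all 5. At 100 CPM, a level picked after these counts were seen, 62 cells met the general capillary list, 45 the arterial, 21 the aerocyte, 14 the venous and 2 the lymphatic list. In other cells the shares were 3.64% for the general capillary, 34.8% for the arterial, 15.2% for the aerocyte and 15.2% for the venous list. No cell was given a vessel type.

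Of 18 genes of the VEGF, angiopoietin and apelin systems, 11 were at least 4-fold higher in endothelial cells, 3 were lower, and the median log2 ratio was 4.52. Kdr, VEGF receptor 2, had a median of 273.6 CPM in endothelial cells and 0 CPM in other cells (log2 ratio 7.43, 7.29 to 7.58). Tek, the angiopoietin receptor TIE2, had medians of 1011 CPM in endothelial cells and 0 CPM in other cells. Some other cells still held much Tek, such as M8 (1641 CPM), H14 (1080.3 CPM) and P10 (999.4 CPM). Ptprb, the phosphatase that restrains TIE2, had medians of 1755 CPM in endothelial cells and 0 CPM in other cells. The 3 lower genes, a number near the share over all tested genes, were the ligands Angpt1, Pgf and Vegfd. Angpt1, which activates TIE2, had 1.8 CPM in the endothelial sum and 83.3 CPM in the other sum, and Pgf, a VEGF receptor 1 ligand, 9.01 CPM in endothelial cells and 215.3 CPM in other cells. Angpt2, often called an endothelial ligand, was also higher in other cells (82.8 CPM in endothelial cells, 325.6 CPM in other cells), short of 4-fold.

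Of 16 Notch pathway genes, 7 were at least 4-fold higher and 4 were lower in endothelial cells, with a median log2 ratio of 1.02. The ligand Dll4 (log2 ratio 9.11, 8.79 to 9.44) and the receptor Notch4 (5.21) were higher. The receptors Notch3 (−5.65) and Notch2 (−4.02) were lower, as were the targets Heyl (−5.53) and Hey2 (−6.47). Dll4 ran from 0 over 24.1 to 3244 CPM in endothelial cells, and 26 cells held 100 CPM. The target Hey1 had a median of 31.7 CPM in endothelial cells and 0 CPM in other cells. Jag1, a further ligand, had sums of 11.1 CPM in endothelial cells and 20.7 CPM in other cells.

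BMP and TGF-beta genes had 7 of 22 tested genes at least 4-fold higher, 6 lower and a median log2 ratio of −0.39. The higher ones included the receptor set of BMP9 and BMP10. Acvrl1, the ALK1 receptor, had a median of 3015 CPM in endothelial cells and 23.2 CPM in other cells, Eng 3866 CPM in endothelial cells and 530.7 CPM in other cells, and Bmpr2, the type II receptor, 397.9 CPM in endothelial cells and 0 CPM in other cells. Tmem100, a target of ALK1 signalling, had 1342 CPM in endothelial cells and 0 CPM in other cells. Of the ligands, Bmp6 was higher (log2 ratio 7.60, 7.37 to 7.84), while Tgfb3 (−4.47) and Bmp2 (−6.64) were lower. The type I receptor Bmpr1a was also lower (−5.09).

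Among transcription factors, 14 of 24 tested genes were at least 4-fold higher, 3 were lower and the median log2 ratio was 2.80. Epas1, the hypoxia factor HIF-2 alpha, had the highest level per length of the listed factors (2266 TPM in the endothelial sum), with 3598 CPM in the median endothelial cell and 121.5 CPM in the median other cell. The SOXF members Sox7 and Sox17 had log2 ratios of 5.09 and 8.98, and Gata2, a GATA factor of blood and endothelium, had 7.68. The ETS factor Erg, central to endothelial identity, had a median of 0 CPM and counts in 23 of 69 endothelial cells, against 5.96% of other cells. Whether the cells without a count express it was not tested. Klf2, a factor induced by blood flow, was at 52.4 CPM in the median endothelial cell and 0 in the median other cell. Foxf1, a lung mesenchyme and endothelium factor, had sums of 316.7 CPM in endothelial cells and 84.7 CPM in other cells. Meox2 (1.07 CPM in endothelial cells, 97.4 CPM in other cells) and Foxc2 (0.574 CPM in endothelial cells and 29 CPM in other cells) were lower.

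Vessel tone genes were split between the groups. Of 23 tested genes, 9 were at least 4-fold higher in endothelial cells and 10 lower. Edn1 had a log2 ratio of 9.94 (9.30 to 10.68), with counts in 43 of 69 endothelial cells and in 2.65% of other cells. Its processing enzyme Ece1 had medians of 1193 CPM in endothelial cells and 7.64 CPM in other cells, while its receptor Ednra had 12 CPM in endothelial cells and 620.1 CPM in other cells. Ace, the angiotensin converting enzyme of lung capillaries, had 959.6 CPM in the median endothelial cell and 4.27 CPM in the median other cell. Nos3, the endothelial nitric oxide synthase, was found in 34 endothelial cells, with up to 2111 CPM, against 18 other cells and at most 195.9 CPM. Ddah1, which breaks down an inhibitor of that synthase, had 5 counts in other cells and a log2 ratio of 11.35 (10.12 to 12.97). It was not in the ranking above because too few endothelial cells had a count. The soluble guanylate cyclase subunits Gucy1a1 (−4.74) and Gucy1b1 (−4.98), which sense nitric oxide, and the cyclic GMP phosphodiesterase Pde5a (−4.19) were lower. Calcrl and Ramp2, which form the adrenomedullin receptor, had medians of 1026 and 1673 CPM in endothelial cells, against 0 and 50.1 CPM in other cells, while the ligand Adm was lower (−3.51).

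Of 19 junction genes tested, 7 were at least 4-fold higher, 2 were lower and 10 were neither, and the higher ones included both rule genes Cdh5 and Cldn5. Jup, plakoglobin, had medians of 3253 CPM in endothelial cells and 29 CPM in other cells, and Esam, an endothelial adhesion molecule, 1570.3 CPM in endothelial cells and 4.47 CPM in other cells. Occludin, Ocln, was detected in 21 endothelial cells and 13 other cells. Ctnnb1, beta-catenin, was within 4-fold, with sums of 695.2 CPM in endothelial cells and 358.6 CPM in other cells.

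For leukocyte adhesion and chemokines, 7 of 18 tested genes were at least 4-fold higher, 3 were lower and the median log2 ratio was 1.5. Over all tested genes the shares were 10.9% higher and 17.3% lower, so the lower genes of this list were near that share. F11r, the junction molecule JAM-A, had a median of 746.4 CPM in endothelial cells and 0 in others, and Ackr2, a chemokine scavenger, reached 4865 CPM. Of the inducible adhesion genes, Vcam1 was lower (47.6 CPM in endothelial cells, 211.3 CPM in other cells), and Sele, the E-selectin gene, had a count in 1 endothelial cell. Selp had counts in 4 endothelial cells and in 1 other cell. The 4 were A24 (2278 CPM), a well with high platelet genes described below, A3 (1054 CPM), A6 (10.1 CPM) and A21 (7.98 CPM).

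Coagulation genes had 6 of 18 tested genes at least 4-fold higher and 5 lower. Thbd, thrombomodulin, which turns thrombin toward anticoagulation, had a lowest, median and highest level of 27.6, 2402 and 7794 CPM in endothelial cells, against 0, 39.4 and 3938 CPM in other cells. F3, tissue factor, which starts clotting, was lower (9.67 CPM in endothelial cells and 232.7 CPM in other cells), as was the thrombin receptor F2r (98.7 CPM in endothelial cells and 580.2 CPM in other cells).

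Lipid and nutrient transport had 10 of 18 tested genes at least 4-fold higher, 2 lower and a median log2 ratio of 2.76. Cd36, a fatty acid transporter, was in all 69 endothelial cells at a median of 2530.5 CPM, against 3.55 CPM in other cells (log2 ratio 8.16, 8.06 to 8.26). Aqp1, a water channel, had medians of 2168 CPM in endothelial cells and 5.9 CPM in other cells, and Slco2a1, a prostaglandin transporter, 1519.7 CPM in endothelial cells and 2.92 CPM in other cells. The caveola coat differed by subunit: Cav1 had medians of 3006 CPM in endothelial cells and 306.9 CPM in other cells and Cavin2 1625 CPM in endothelial cells and 19 CPM in other cells, while Cavin1 had 264.9 CPM in endothelial cells and 283.8 CPM in other cells. Fabp4, a fatty acid binding protein known from heart and fat endothelium, was low at 1.15 CPM in endothelial cells and 4.46 CPM in other cells. Vldlr, a lipoprotein receptor, was lower (log2 ratio −5.37).

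Antigen presentation and interferon genes were at least 4-fold higher for 14 of 23, and none were lower, with a median log2 ratio of 2.22. H2-Ab1, a chain of MHC class II, had a median of 485.8 CPM in endothelial cells, from 0 to 3803 CPM, against 0 CPM in other cells (log2 ratio 4.89, 4.82 to 4.96). It had a count in 65 of 69 endothelial cells, while Ptprc, the leukocyte gene CD45, had one in 3 (C17 at 134.5, C11 at 15.8 and A4 at 5.58 CPM). None of the 39 cells with 100 CPM of H2-Ab1 had 100 CPM of Ptprc, but only 1 cell had that level of Ptprc, so this overlap says little. All 3 cells with a count of Ptprc also had a count of H2-Ab1, and A4 held the highest H2-Ab1, 3803 CPM. Cd74, the invariant chain, had a median of 25.1 CPM, and Ciita, the class II regulator, counts in 15 endothelial cells and 3 other cells. Class I genes were broad, with B2m at 1755 CPM in the median endothelial cell and 369.99 CPM in the median other cell. H2-K1, H2-D1 and the Ly6 genes have close copies, so reads could be split among them.

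Basement membrane and matrix genes were the reverse, with 1 of 23 at least 4-fold higher, 15 lower and a median log2 ratio of −3.25. The 1 higher gene, the laminin chain Lama3, had counts in 5 endothelial cells, and its log2 ratio was 4.96 with all 69 cells and −0.25 without wells D8, E24 and L24. Collagen IV was among the 7 genes within 4-fold: Col4a1 had 902.7 CPM in the endothelial sum and 939.00 CPM in the other sum, and Col4a2 620.8 CPM in endothelial cells and 809.96 CPM in other cells. Laminin chains differed: Lama5 had 375.4 CPM in endothelial cells and 135.9 CPM in other cells, Lama4 26.2 CPM in endothelial cells and 357.3 CPM in other cells. Hspg2, perlecan (−5.27), Fn1, fibronectin (−4.46), and the fibrillar collagen gene Col1a1 (−5.37) were lower. Other cells of the plate carried the fibroblast marker sums given above, and their part in these ratios was not tested.

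Guidance genes had 12 of 21 tested genes at least 4-fold higher, 4 lower and a median log2 ratio of 2.50. Robo4 (log2 ratio 8.25) is an endothelial receptor that steadies the barrier, and Sema6a (5.22) and Sema3g (5.97) are semaphorins. Robo1 (−7.53) and the ligands Slit2 (−5.82) and Slit3 (−4.96) were lower. Of the ephrin pair that separates arteries from veins, Efnb2 had 81 CPM and Ephb4 440.1 CPM in the endothelial sum, against 5.57 and 63.2 CPM in the other sum. Of 16 tested genes of vessel wall crosstalk, 5 were at least 4-fold higher and 6 lower. Pdgfb, the ligand that recruits pericytes, was found in 38 endothelial cells and 32 other cells (log2 ratio 6.80, 6.61 to 6.99), while its receptor Pdgfrb had medians of 14 CPM in endothelial cells and 670.6 CPM in other cells.

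Immediate early and heat shock genes, which dissociation is known to induce, had 1 of 27 tested genes at least 4-fold higher and 7 lower, with a median log2 ratio of −1.28. Fos had medians of 129.02 CPM in endothelial cells and 2215 CPM in other cells and Egr1 69.9 CPM in endothelial cells and 2232 CPM in other cells, while Jun had 1210.1 CPM in endothelial cells and 1337 CPM in other cells. The 1 higher gene was Klf2.

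Proliferation genes were at least 4-fold higher for 9 of 16 tested, with none lower, but the sums rested on few cells. A23 had 14 of 18 such genes at 20 CPM and Mki67 at 998.7 CPM, and B4 had 10 of 18. Mki67 had a count in 5 of 69 endothelial cells, and Stmn1, which is not limited to dividing cells, in 50.

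**Figure D5:**
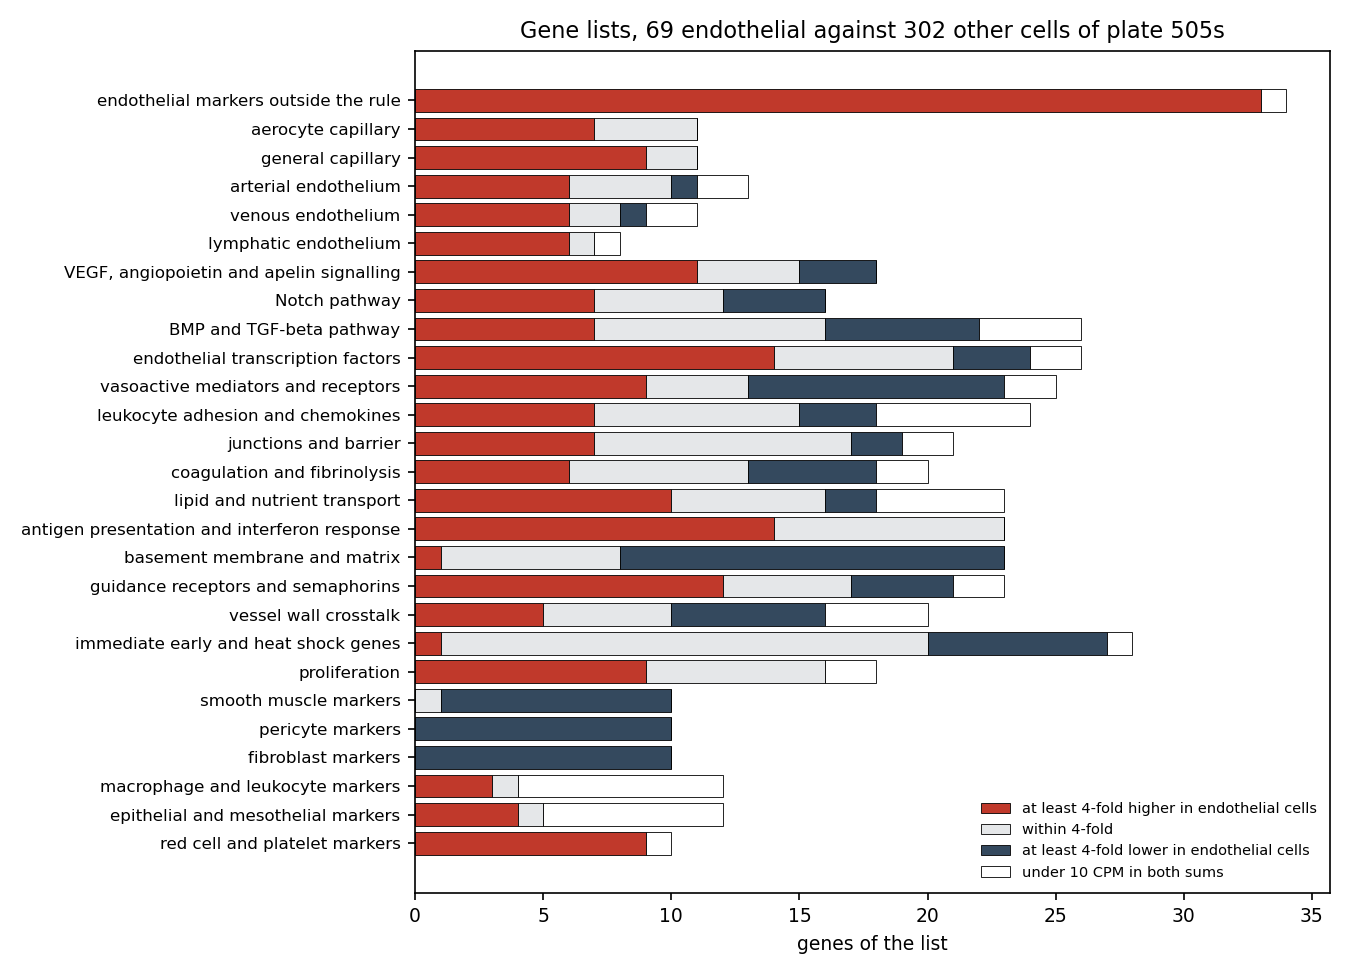
For each of 27 gene lists, the number of genes at least 4-fold higher in endothelial cells, within 4-fold, at least 4-fold lower, or under 10 CPM in both sums (female mouse 1, 69 endothelial cells against the other cells of the plate). The endothelial list is all higher but for 1 gene, and the smooth muscle, pericyte and fibroblast lists are nearly all lower.

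Platelet genes were highest in single wells. A24 held the platelet genes Ppbp at 8123, Pf4 at 1961 and Itga2b at 16508 CPM, and C21 held Itga2b at 2293 CPM. A24 also held Vwf at 3567, Selp at 2278 and Mmrn1 at 504.2 CPM. It was among the cells that met the venous and lymphatic lists at 20 CPM. All 9 tested red cell and platelet genes were at least 4-fold higher in the endothelial sum. Only 1 of the 9 had 10 CPM in other cells. The rest passed the filter through the endothelial sum alone, so nothing is read from the count. Of 5 tested epithelial genes, 4 were also at least 4-fold higher (Sftpc, Sftpa1, Ager and Hopx). Hopx alone kept that fold without the 3 wells outside rows A to C. Sftpc, the surfactant protein C gene, stood at 144.7 CPM in endothelial cells and 28.7 CPM in other cells. Sftpc had a median of 4.71 CPM in endothelial cells and counts in 38 of 69, against 48% of other cells. It reached 4062 CPM in D8, and without the 3 wells its log2 ratio was 0.73, against 2.33 with them. Sftpa1, another surfactant protein gene, had a log2 ratio of −3.10 without these wells and 3.61 with them, and Ager, known from flat alveolar epithelium, had 0.80 without them and 2.67 with them. Among leukocyte genes, C1qa and C1qb had no count in endothelial cells, and 3 of 4 tested genes, Lyz2, Cd3e and Mrc1, were higher with counts in 11, 3 and 4 endothelial cells. Only 1 of the 4 had 10 CPM in other cells, so nothing is read from this count either. The log2 ratio of Lyz2, the lysozyme gene, was 2.99 with the 3 wells and 0.80 without them.

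The 3 cells of female mouse 1 outside rows A to C differed from the rest. E24 held Acta2 at 15716, Myh11 at 5905 and Cspg4 at 889.96 CPM, with Pecam1 at 31.4 CPM. All 10 smooth muscle genes reached 100 CPM in E24, which was counted as endothelial by the rule only. L24 held Col3a1 at 7275, Acta2 at 2874 and Pecam1 at 691.1 CPM. D8 held Pecam1 at 1027 CPM beside Sftpc. Together they gave 3.66% of all endothelial counts but 51.4% of those of Acta2, 69.6% of Myh11, 73.5% of Tagln and 72.6% of Pdgfra. Without them the sums gave 1264 genes at least 4-fold higher and 2093 lower, against 1249 and 1989 with them. In rows A to C, B14 had the highest Cspg4 at 981.8 CPM.

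The 3 cells of male mouse 1 that met the rule each carried genes of other types too. J4 of plate 045s held Plvap at 3398, Vwf at 1966 and Slc6a2 at 773.6 CPM, beside Acta2 at 7056 and Sftpc at 4859.6 CPM. I23 of the same plate held Acta2 at 8580.1 CPM, Pecam1 at 22.1 CPM and no count of Cldn5 or Tie1. All 10 smooth muscle genes reached 100 CPM in I23, which was counted as endothelial by the rule only. O20 of plate 046s, with 605149 counts, held Col3a1 at 1332 and Pdgfra at 1140.2 CPM. With so few cells from other mice, the profile described here is that of 1 female mouse, and sex, mouse and plate cannot be told apart.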

How the data were processed

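RNA of 1376 single cells from 3 mice (4 plates, 1 library per cell) was read with Smart-Seq2. The authors deposited 1 table of raw read counts for 46517 genes, and its 1376 columns were matched to the labels by title. Builds GRCm38 and mm10 stand in the submitters' processing notes beside the tools Subread, featureCounts, Bowtie2, Bowtie and bcl2fastq. No version or strand setting is stated there, so reads of a gene and its antisense partner cannot be told apart. Reads carry no molecular identifiers, so reads and not molecules were counted. Intervals of ratios treat each read as independent and cover neither amplification nor the spread between cells, so they are too narrow. No 2 columns were identical. Symbols, exon lengths and coordinates came from GENCODE M21, which matched 46005 gene IDs. The 512 other IDs held 0.184% of counts and were kept in totals.

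CPM is a count divided by the cell's total, times 1000000. Cells with at least 20 CPM in 3 of 6 markers were endothelial. The 3 outside plate 505s were described cell by cell. On plate 505s, counts were summed over 69 endothelial and 302 other cells and scaled to CPM. Genes with at least 10 CPM in either sum were compared, and a ratio of 4 was the fold used, with a floor of 3 counts for a sum of 0. Each group is 1 sample of 1 mouse, so no test was run and no p-value is given. Intervals of ratios and shares are exact 95% intervals. TPM was computed from sums and GENCODE exon lengths. Genes were named by a rule: the 6 markers, the 20 largest and 10 smallest ratios among genes with at least 50 CPM and counts in most cells of the higher group, list members past 4-fold or among the most abundant, and the reporter genes. Single wells, the 100 CPM level, the restriction to rows A to C, the pairs, the correlated genes and the promoter words were chosen after values were seen. The members and the 27 gene lists (422 genes) were chosen with earlier results of these data known. Some named genes are not reported here. The ratio step was checked on simulated counts. Python 3.11.15, pandas 2.3.3, scipy 1.17.1, R 4.3.3, edgeR 4.0.16 (TMM factors) and DESeq2 1.42.0 (size factors) were used.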

Additional observations from a re-analysis of the deposited data

How the results depend on the processing

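The 72 cells became 67 to 93 under other marker levels and numbers of markers. The 1249 higher and 1989 lower genes stayed between 1145 and 1267 and between 1756 and 2229, apart from the settings named next. With no filter on low values the counts were 3318 higher and 4141 lower, among 27087 genes. Leaving out cells with 3 markers of another list left 3 cells, 1474 higher and 6404 lower genes. At 50 CPM, 25 cells met the aerocyte, 16 the venous and 3 the lymphatic list. At 100 CPM, a level added after seeing the data, these were 21, 14 and 2. The lymphatic list was met by 13 cells at 10 CPM and by 33 with 2 genes.

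Of the named genes past 4-fold, 33 were short of it under at least 1 setting, 22 of them outside the 3-cell setting. By setting these were 22 with the 3 cells, 10 against all other cells of the 3 mice, 8 with markers at 10 CPM, 5 in rows A to C, 3 with the mean of per-cell CPM, and 1 each with markers at 50 CPM, at least 2 markers and at least 4 markers. Neither TMM, DESeq2 size factors nor the missing filter lost one. Of these genes, 15 changed sign somewhere. In the 3 cells left, log2 ratios were −3.23 for Ager, −0.49 for Apln, −1.65 for Itga2b, −2.36 for Lyz2, −0.66 for Mki67, −1.67 for Pdgfb, −1.28 for Reln, −1.94 for Sema6a, −1.49 for Sftpa1, −2.05 for Sftpc, 0.74 for Vcam1 and −2.74 for Vegfc. Against all other cells of the 3 mice they were −1.04 for Lyz2, −1.32 for Mrc1 and −1.43 for Pf4. In rows A to C alone, a setting added after seeing the data, they were −0.25 for Lama3 and −3.10 for Sftpa1. The cause was not tested. The median over all genes moved to −0.12 with TMM and −0.27 against all other cells, from −0.06.

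No paired analysis was possible because nearly all members came from 1 mouse and the 2 groups share 1 plate. Depth limits single cells: in C10, 1 count is 19.7 CPM, so a gene listed at 0 there can still be expressed. Leaving out a replicate could not be done with 1 mouse a group.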

Other observations

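On the plate of female mouse 1, 30 of the other cells had at least 1 of the 6 endothelial markers at 20 CPM. In well column 15 this held for 8 of 13 other cells, of which 7 had Cldn5, 2 had Sox18 and 1 had Cdh5 at that level. Each of the remaining 23 columns held 0 to 3 such cells. The column was singled out after the plate map was seen.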
